A study of Homo sapiens with 48 samples.

Results

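The uveal melanoma cell lines 92-1 and MEL202 were compared without drug, from 12 of the 48 RNA sequencing samples of a study of 3 such lines. The study treated the lines with FHT-1015, an inhibitor of the chromatin remodelling ATPases SMARCA4 and SMARCA2, and treated 92-1 in a further experiment with the protein kinase C inhibitor IDE196. The samples used here are the DMSO controls of the FHT-1015 experiments, chosen by their labels alone: 92-1 given DMSO for 4 h, 92-1 for 24 h, MEL202 for 4 h and MEL202 for 24 h, each with 3 samples labelled as biological replicates. Both lines are labelled wild type, and DMSO, which the labels call the negative control, is the one agent in each of the 4 groups. The label wild type is quoted as given and not read here as a statement on tumour mutations. A second set of 6 DMSO samples of 92-1, from the IDE196 experiment, and 6 DMSO samples of the third line, MP41, are quoted where they bear on a result. Each line is 1 line, so a difference between 92-1 and MEL202 describes these lines and not a class of tumours. The labels do not say whether the lines were grown, extracted or sequenced together, so a difference between lines cannot be told apart from a difference between batches within the 12 samples. Since no label says whether replicates were separate cultures, p-values measure the spread between these samples, which may be technical.

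Uveal melanoma arises from melanocytes of the eye, cells that make melanin in organelles called melanosomes under the control of transcription factors such as MITF and SOX10. Most tumours carry an activating mutation in the G protein alpha subunit GNAQ or its paralogue GNA11, which signals through phospholipase C beta and protein kinase C to the MAPK cascade. Tumours differ in risk class, in loss of the deubiquitinase BAP1, in expression of the antigen PRAME and in gains and losses of chromosome arms.

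The 12 libraries held between 15970346 and 32317711 reads counted in genes, and between 21106 and 25605 genes with a read. Levels are given as CPM, read counts scaled to a common library size by TMM, which compares a gene between libraries but not 1 gene with another. The first principal component separated the lines and held 75.4% of the variance. MEL202 libraries spread more than 92-1 libraries, with a biological coefficient of variation of 0.309 against 0.112. Within MEL202, the deviation of a library from the line's mean correlated across 10600 genes with GC content from a Spearman coefficient of -0.48 to 0.81, the highest being replicate 1 at 4 h. In 92-1 the same coefficient ran from -0.44 to 0.41. With gene length it spanned -0.57 to 0.61 in MEL202 and -0.17 to 0.16 in 92-1. The part of GC content and length in the results was not tested beyond the offset fit quoted below.

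Of 15888 genes tested, 4229 were higher in 92-1 and 4575 were higher in MEL202 at an adjusted p under 0.05 (edgeR quasi-likelihood test, time as a term), which is 55.4% of the genes. A fold change shown to exceed 2, tested with glmTreat at the same threshold, held for 1166 genes higher in 92-1 and 1340 higher in MEL202, or 15.8% of the genes. These percentages, 26.6% and 28.8% for the first test by direction and 7.34% and 8.43% for the second, are the background for each count of gene list members below. The 6 libraries of one line lay wholly above the 6 of the other for 5714 genes, 36.0% of those tested. Without MEL202 replicate 1 at 4 h the counts past the 2-fold test were 1270 and 1396. No gene passed the test of a line difference that changes with time (0 of 15888, edgeR quasi-likelihood), and 371 genes (2.34%) had an unadjusted p under 0.05. DESeq2 called 1 gene in that test. In the edgeR test, the unadjusted count ran from 248 to 1648 with single libraries left out, highest without MEL202 replicate 2 at 4 h. A lack of calls here does not show that the line difference is the same at both times.

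Several genes were read in 1 line and hardly at all in the other. By a rule of no library above 3 reads in 1 line and a mean of at least 5 CPM in the other, 36 genes were detected in 92-1 alone and 51 in MEL202 alone, of which 31 and 42 are protein-coding. The second set of 92-1 libraries had a mean of at least 5 CPM for 31 of the 36 genes, and no library above 3 reads for 30 of the 51. MP41 had a mean of at least 5 CPM for 8 of the 36 and for 20 of the 51.

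PRAME, a tumour antigen used as a risk marker in uveal melanoma, had the highest level per kilobase of exon among genes detected in MEL202 alone, at 84.7 CPM. Its level in MEL202 ran from 283 CPM through a median of 318 to 366, while 4 of the 6 libraries of 92-1 had no read of it and the highest had 0.137 CPM. The ratio of the means was 9682, with an interval of 3781 to 35533 that covers counting error only, since 92-1 held 4 reads in all. The fitted log2 fold change of -12.869 was -14.117 without 92-1 replicate 1 at 24 h. It was -15.462 at 4 h alone and -12.035 at 24 h alone. The second set of 92-1 had no PRAME read in 6 libraries, and MP41 had a mean of 189 CPM.

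ME1, the cytosolic malic enzyme that makes NADPH, had 0 reads in the 6 libraries of 92-1 and 70.6 to 115 CPM in MEL202, at least 540-fold higher with a floor of 3 reads per library. DDIT4L, a paralogue of the mTORC1 inhibitor DDIT4, was likewise at 0 in 92-1 and at 55.0 to 96.9 CPM in MEL202, at least 482-fold higher. H1F0, a linker histone of differentiated cells, reached 139 to 208 CPM in MEL202 against at most 0.183 CPM in 92-1. The carboxypeptidase-like gene CPXM2 stood at a mean of 79.3 CPM against 0.0178, with 2 reads in 92-1 (ratio 4454, counting interval 1233 to 36777). HPGD, which inactivates prostaglandins, and the mitochondrial protein gene CHCHD10 had means of 77.7 and 68.6 CPM in MEL202 and 2 reads each in the 92-1 libraries together. In the second 92-1 set these genes were low as well, with means of 0.0292 CPM for ME1, 0.63 for H1F0, 0.142 for HPGD and 0.0696 for CHCHD10. CHCHD10 shares 18.1% of its exon bases with MMP11, and the libraries do not mark strand, so reads of overlapping genes cannot be told apart.

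Among protein-coding genes detected in 92-1 alone, CPXM1, a paralogue of CPXM2, had the highest level per kilobase of exon, at 36.2 CPM. Its libraries ran from 74.4 CPM through a median of 87.9 to 94.3 in 92-1, and 1 MEL202 library held both of the line's 2 reads (ratio 5423, counting interval 1501 to 44777). The paralogues CPXM1 and CPXM2 thus lay on opposite sides of the comparison, and MP41 had at most a mean of 0.167 CPM of either. QPCT, which forms N-terminal pyroglutamate, had a mean of 56.4 CPM in 92-1 and 2 reads in MEL202. GRIA4, a glutamate receptor subunit, had a mean of 52.3 CPM against 0.0463, and its log2 fold change went from 10.20 to 11.12 without MEL202 replicate 3 at 4 h.

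ZBED6CL was at 29.3 CPM ± 2.72 (SD, n = 6) in 92-1 with 0 reads in MEL202, at least 204-fold higher. The ribosomal oxygenase gene RIOX1 and the phosphatase gene DUSP23 were also at 0 reads in MEL202, against means of 27.4 and 27.1 CPM in 92-1, at least 190.5-fold and 188-fold higher. MDFI, an inhibitor of MyoD-family factors, and the homeobox gene IRX2 had means of 22.7 and 20.7 CPM in 92-1 with 1 MEL202 read each. The antisense gene AC005281.1, at 39.4 CPM against 1 read, overlaps SCIN over 29.9% of its exon bases, and its log2 fold change of 11.48 was 7.20 when the stranded columns were summed.

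**Figure D1:**
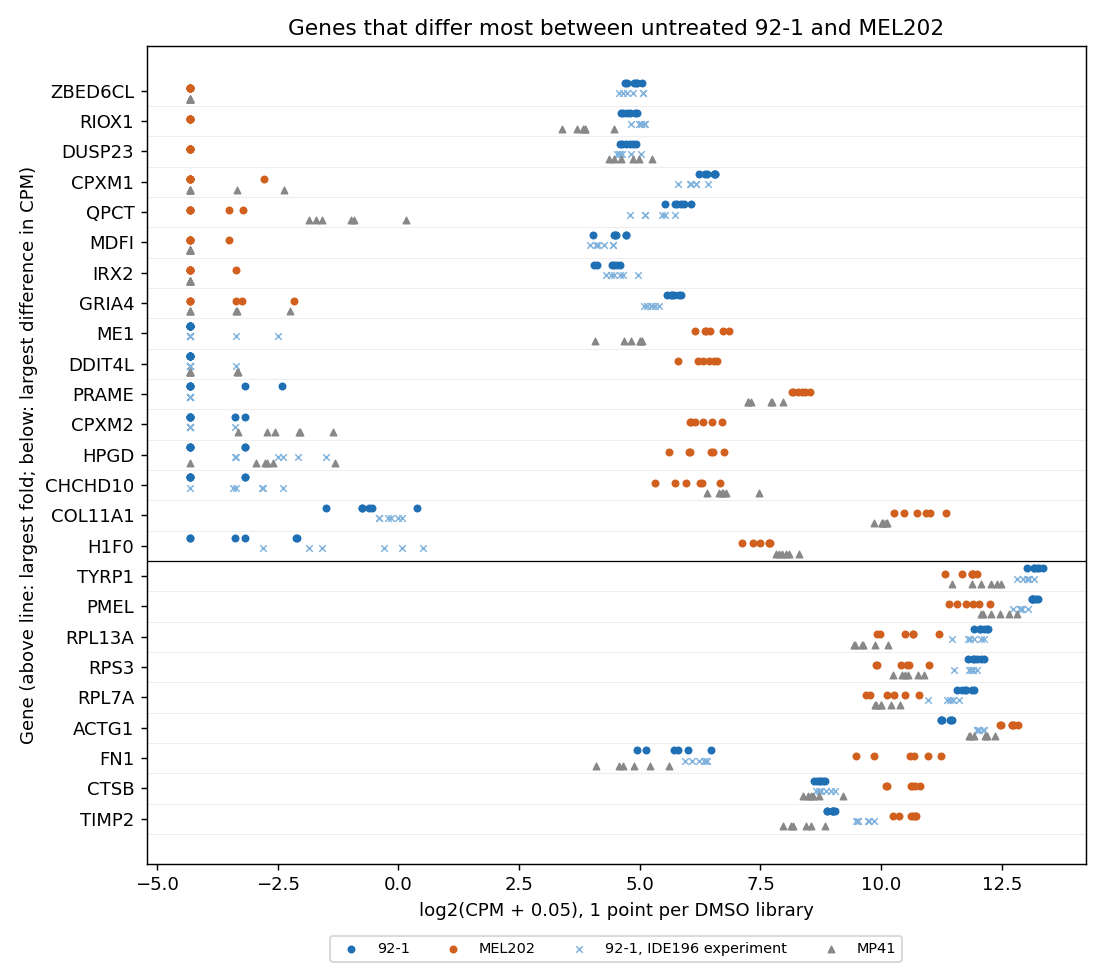
Level of the genes with the largest fold changes and the largest differences in CPM, as log2(CPM + 0.05) in each DMSO library of 92-1, MEL202, the second 92-1 set and MP41. The 92-1 and MEL202 points do not overlap for any gene drawn, which the choice of the largest-fold genes required. The 92-1 points of ME1 and DDIT4L sit at 0 reads.

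The bases just before the start of 4 of these genes are shown, since their transcripts were read in 1 line and were at or near 0 in the other. The sequences are RefSeq promoter windows on GRCh38.p14, printed 5′ to 3′ on the gene's strand up to the GENCODE start, with CpG dinucleotides in capitals.
CPXM1, chr20:2800638-2800877, minus strand: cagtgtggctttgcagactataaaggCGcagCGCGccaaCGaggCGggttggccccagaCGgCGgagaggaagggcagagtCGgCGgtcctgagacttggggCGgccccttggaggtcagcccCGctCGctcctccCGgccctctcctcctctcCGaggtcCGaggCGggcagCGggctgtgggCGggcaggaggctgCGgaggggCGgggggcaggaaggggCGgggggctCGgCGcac
DUSP23, chr1:159780712-159780931, plus strand: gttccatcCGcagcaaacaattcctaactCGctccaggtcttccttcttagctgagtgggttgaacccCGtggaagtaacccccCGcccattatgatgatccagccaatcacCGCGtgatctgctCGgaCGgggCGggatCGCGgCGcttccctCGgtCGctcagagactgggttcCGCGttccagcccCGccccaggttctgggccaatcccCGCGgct
PRAME, chr22:22559362-22559515, minus strand: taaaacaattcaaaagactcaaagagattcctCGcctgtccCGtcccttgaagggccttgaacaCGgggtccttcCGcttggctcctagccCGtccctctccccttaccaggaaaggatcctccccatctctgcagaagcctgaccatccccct
ME1, chr6:83431072-83431301, minus strand: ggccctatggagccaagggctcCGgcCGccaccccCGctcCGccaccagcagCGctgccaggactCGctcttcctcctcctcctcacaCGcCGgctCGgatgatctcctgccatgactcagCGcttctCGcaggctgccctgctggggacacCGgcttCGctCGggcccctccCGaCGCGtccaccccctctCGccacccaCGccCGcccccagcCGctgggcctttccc
The stretch before CPXM1 held 23 CpG in 240 bases and that before ME1 held 21 in 230. DUSP23 had 19 in 220, and PRAME, the sparsest of the 4, had 5 in 154.

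Over the full windows of 300 bases, the 23 matched genes detected in 92-1 alone had a median of 24 CpG and the 37 matched genes detected in MEL202 alone a median of 18. The 11163 matched promoters of genes tested had a median of 26, with quartiles of 18 and 35. The E-box CACGTG, which reads the same on both strands, was present in 1 of 23 and 1 of 37 of these windows, against 10.2% of the windows of genes tested. The M-box letters TCACATG, searched with the reverse complement CATGTGA and with no overlap to CACGTG, were in 0 of 23 and 1 of 37, against 2.25%. These matches are a description of letters in a window.

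Among protein-coding genes past the 2-fold test, the 5 with the largest difference in CPM in favour of 92-1 were 2 pigment genes and 3 ribosomal protein genes. TYRP1, a melanosomal enzyme of eumelanin synthesis, ran from 8258 CPM through a median of 9363 to 10421 in 92-1 and from 2542 through 3779 to 4068 in MEL202. Its log2 fold change was 1.41 ± 0.13 (SE, adjusted p = 1.87e-07, edgeR). PMEL, the structural protein of melanosome fibrils, ran from 8887 through 9047 to 9683 CPM against 2709 through 3648 to 4857 (log2 fold change 1.33 ± 0.14). The groups did not overlap for either gene, and both passed the 2-fold test, as the choice of genes required.

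RPL13A, RPS3 and RPL7A, proteins of the ribosome, had means of 4366, 4016 and 3467 CPM in 92-1 and 1501, 1388 and 1206 in MEL202. Among cytosolic ribosomal protein genes, a list chosen after the data were seen, 70 of 82 tested were higher in 92-1 and 1 was lower, with a median log2 fold change of 0.94 against -0.01 over all genes tested. Against the second 92-1 set the median was 0.56, with 44 higher and 4 lower. These genes have many processed pseudogenes and host small nucleolar RNAs, so their counts are uncertain. Their share of all reads ran from 10.9% to 12.9% in 92-1 and from 4.71% to 9.55% in MEL202. The lowest shares in MEL202, 4.78% and 4.71%, were those of replicate 2 at 4 h and 24 h, whose coefficients with length were 0.61 at both times, and the highest, 9.55%, was that of replicate 3 at 4 h, at -0.57. With GC and length offsets the median of the list was 0.975, with 70 higher and 2 lower.

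In the other direction, the 5 genes chosen in the same way were of the cytoskeleton, the matrix and the lysosome. ACTG1, cytoplasmic gamma actin, ran from 5615 CPM through 6725 to 7273 in MEL202 and from 2419 through 2600 to 2830 in 92-1 (log2 fold change -1.31 ± 0.11). It was -0.61 against the second 92-1 set. COL11A1, a chain of fibrillar collagen XI, ran from 1222 through 1839 to 2579 CPM in MEL202 and did not exceed 1.25 CPM in 92-1 (log2 fold change -11.42 ± 0.33). MP41 lay near MEL202 for this gene, with a mean of 1045 CPM. FN1, the matrix glycoprotein fibronectin, ran from 713 through 1589 to 2409 CPM against 30.8 through 53.7 to 88.7. CTSB, a lysosomal cysteine protease, and TIMP2, an inhibitor of matrix metalloproteases, were 3.46-fold and 3.02-fold higher in MEL202. The log2 fold change of TIMP2 went from -1.59 to -0.90 against the second 92-1 set.

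Gene lists were then read against the background percentages. The lists and markers were drawn up with results of these data known, so their counts are descriptions.

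**Figure D2:**
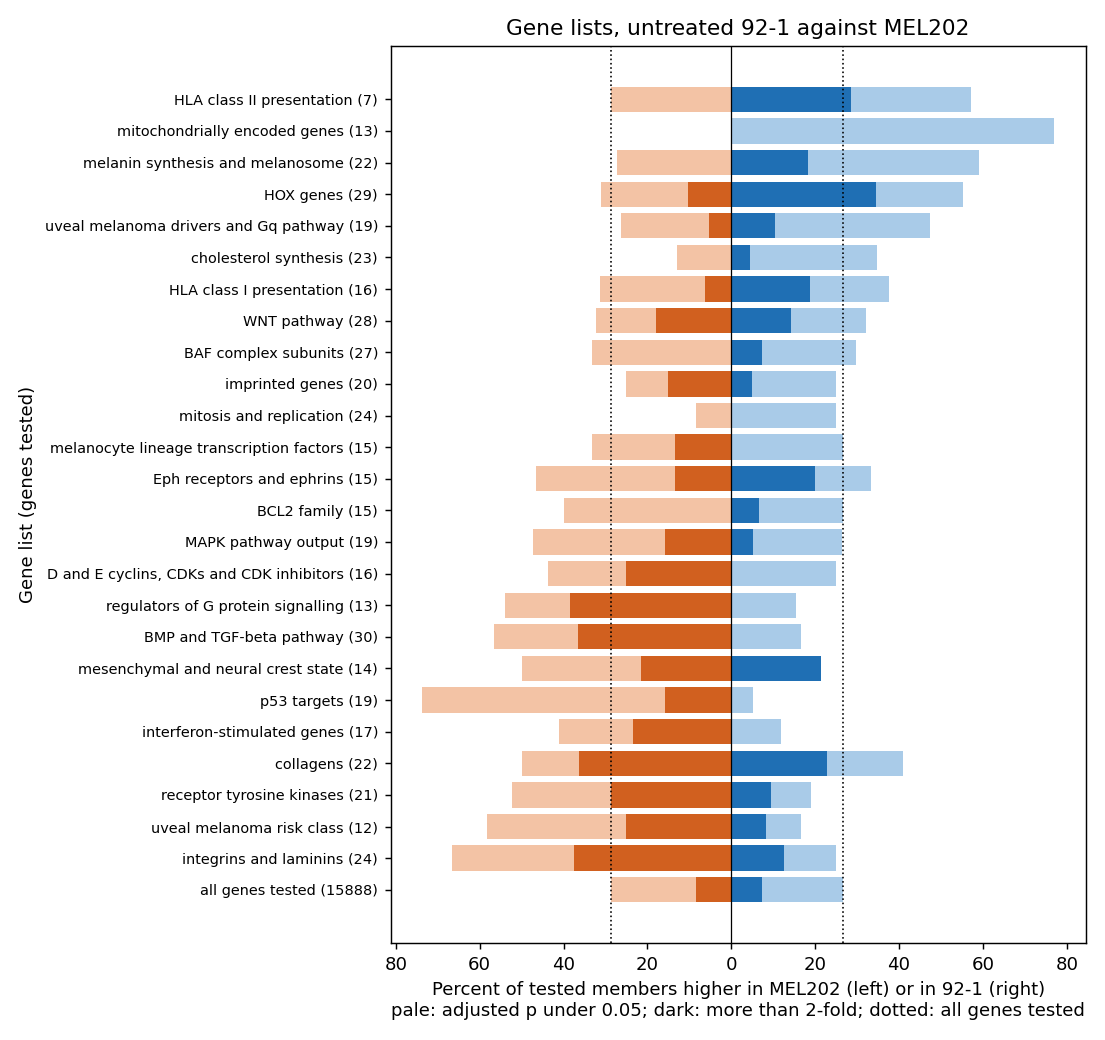
Percent of tested members of each gene list higher in MEL202 (left) or in 92-1 (right), pale for an adjusted p under 0.05 and dark for the 2-fold test, with all 15888 genes as the last bar. Lists with fewer than 7 genes tested are not drawn, and the dotted lines mark 28.8% and 26.6%.

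Both lines expressed the melanocyte regulators MITF and SOX10, and pigment genes differed in level. MITF, the master regulator of melanocytes, ran from 343 CPM through 368 to 456 in 92-1 and from 235 through 337 to 429 in MEL202. SOX10, which drives MITF expression in the neural crest lineage, ran from 391 through 484 to 583 against 388 through 588 to 681. Neither passed the test, with log2 fold changes of 0.18 ± 0.14 (adjusted p = 0.262, edgeR) and -0.17 ± 0.13 (adjusted p = 0.295). Against the second 92-1 set, whose means were 542 and 710 CPM, MITF reached 0.71 (adjusted p = 0.000325) and SOX10 changed sign to 0.36 (adjusted p = 0.031). The sign of SOX10 also turned with GC and length offsets, to 0.08.

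Of 15 lineage transcription factors tested, 4 were higher in 92-1 and 5 in MEL202, and against the second 92-1 set 6 and 4, with a median that turned from -0.17 to 0.22. SOX6 and SOX5, SOXD factors that modulate SOX10 activity, were higher in 92-1 by 2.50-fold and 2.26-fold, without passing the 2-fold test. SOX9, a related factor of neural crest and cartilage, was 19.4 CPM ± 2.69 in MEL202 and 4.59 ± 1.01 in 92-1 (SD, n = 6 each), 4.26-fold higher. IRF4, which acts with MITF on the tyrosinase gene, was 3.73-fold higher in MEL202 and low in both lines, at 4.90 and 1.35 CPM. The SOX9 difference was smaller against the second 92-1 set, at -1.10 in place of -2.09 on the log2 scale, and that of IRF4 larger, at -3.68.

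Of 22 genes of melanin synthesis and the melanosome, 13 were higher in 92-1 and 6 in MEL202, with a median log2 fold change of 0.65, and 10 and 7 with a median of 0.41 against the second set. Without 92-1 replicate 3 at 4 h the counts were 13 and 3. OCA2, a melanosomal anion channel, ran from 37.5 CPM through 46.8 to 50.6 in 92-1 and from 8.05 through 10.2 to 18.9 in MEL202, a 4.07-fold difference, and its log2 value of 2.02 was 1.23 against the second set. DCT, dopachrome tautomerase, was low in both lines at 6.13 and 1.08 CPM and 5.69-fold higher in 92-1, but its call was lost against the second set (log2 0.78, adjusted p = 0.0684). TYR, tyrosinase, the rate-limiting enzyme, was 2.25-fold higher in 92-1 and stood at -0.20 on the log2 scale against the second set (adjusted p = 0.212). SLC45A2, a melanosomal transporter, went the other way, at 252 CPM ± 49.6 in MEL202 and 127 ± 11.7 in 92-1, and MLANA, a melanosomal protein, was 703 against 522. Per kilobase of exon, the levels of TYRP1 and PMEL in 92-1 were 2516 and 2352 CPM and that of TYR was 109.

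The 8 melanocytic markers summed to 18900 to 22070 CPM in 92-1 and to 7618 to 9692 CPM in MEL202. Of these, 7 had a mean of at least 1 CPM in 92-1 and 8 in MEL202. The exception, S100B, a calcium-binding protein of melanocytes and Schwann cells, had a mean of 11.9 CPM ± 5.51 in MEL202 and 0.340 ± 0.240 in 92-1 (SD, n = 6 each), and 0.0149 CPM in the second 92-1 set. Markers of other cell types were lower: the 6 immune markers summed to at most 3.78 CPM, the 5 endothelial to at most 1.85 and the 6 epithelial to at most 5.83. The 7 fibroblast markers reached 4.51 CPM in 92-1 and 8.25 in MEL202, and the 5 Schwann cell markers 16.1 and 9.15. The retinal pigment epithelium set ran from 4.39 to 6.95 CPM in 92-1 and from 16.6 to 56.3 in MEL202. CD3E, CDH5, TEK, THY1 and RPE65 had no read in MEL202. Of the 5 retinal pigment epithelium markers, TTR, the thyroxine carrier transthyretin, ran from 16.4 to 56.1 CPM in MEL202 against at most 0.183 in 92-1. RLBP1, a retinoid carrier, was at a mean of 4.76 CPM in 92-1 and 0.139 in MEL202. In bulk RNA, fewer cells of a type and less RNA per cell cannot be told apart.

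Genes of the Gq pathway were expressed in both lines and differed in protein kinase C isoforms. GNAQ and GNA11, the G protein subunits mutated in these tumours, had means of 94.4 and 70.7 CPM in 92-1 and 84.9 and 69.2 in MEL202, and neither passed the test. Of 19 genes tested, 9 were higher in 92-1 and 5 in MEL202. PRKCA, the classical isoform alpha, ran from 59.7 CPM through 132 to 168 in MEL202 and from 17.5 through 24.5 to 28.1 in 92-1, a 5.01-fold difference. PRKCB, the classical isoform beta, ran from 3.24 through 4.79 to 5.85 CPM in 92-1 and did not exceed 0.121 in MEL202, where 7 reads were counted. Without MEL202 replicate 3 at 24 h its log2 fold change went from 6.33 to 7.03. PRKCQ, isoform theta, was 6.66-fold higher in 92-1, at 3.90 against 0.589 CPM.

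PRKCD and PRKCE, isoforms delta and epsilon, were higher in 92-1 by 0.36 and 0.65 on the log2 scale. Per kilobase of exon, PRKCD was highest of these in both lines, PRKCE stood at 5.08 CPM in 92-1 and 3.24 in MEL202, and PRKCA at 2.17 and 10.9. Isoform alpha was thus below epsilon in 92-1 and above it in MEL202. PLCB3, a phospholipase C beta, was lower in 92-1 by a log2 fold change of -0.999 ± 0.14. BAP1, the nuclear deubiquitinase lost in high-risk tumours, was present in both, at 107 CPM ± 5.65 in 92-1 and 179 ± 32.4 in MEL202 (SD, n = 6 each), and its log2 difference of -0.74 was -0.26 against the second set.

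Genes of the uveal melanoma risk class were mostly higher in MEL202, 7 of 12 tested against 2 in 92-1. The median log2 fold change was -0.69, and -0.10 against the second set. Besides PRAME, ECM1, an extracellular matrix protein, ran from 93.5 CPM through 114 to 153 in MEL202 and from 0.932 through 1.53 to 2.89 in 92-1, 69.9-fold lower, and -4.79 in place of -6.13 on the log2 scale against the second set. ROBO1, the SLIT receptor, was 3.57-fold higher in MEL202. MTUS1, a microtubule-associated tumour suppressor, was 2.42-fold higher in 92-1. CDH1, epithelial cadherin, had means of 0.202 CPM in 92-1 and 0.340 in MEL202 and did not enter the test.

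Transcripts that report MAPK signalling differed in both directions, with 5 of 19 higher in 92-1 and 9 in MEL202. The balance turned against the second set, to 7 and 6, with a median of 0.17 in place of -0.29. EGR1, an immediate early transcription factor, ran from 33.4 through 39.4 to 52.4 CPM in MEL202 and from 7.22 through 10.1 to 15.7 in 92-1. DUSP6, an ERK phosphatase, and IER3, an early response gene, were 3.47-fold and 5.89-fold higher in MEL202. FOSL1, a FOS-family factor, was 3.63-fold higher in 92-1 at a low level, 1.87 against 0.512 CPM. DUSP4, another ERK phosphatase, was higher in 92-1 by 0.48 on the log2 scale, and by 1.16 against the second set. DUSP6 and IER3 overlap other annotated genes over 40.5% and 26.5% of their exon bases.

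The targets of FHT-1015 were expressed in both lines before treatment. SMARCA4 ran from 250 through 280 to 307 CPM in 92-1 and from 284 through 389 to 588 in MEL202, and the groups overlapped. Its log2 fold change of -0.52 ± 0.15 (adjusted p = 0.00834, edgeR) turned to 0.56 (adjusted p = 0.00475) against the second 92-1 set, where the mean was 591 CPM. With GC and length offsets it was -0.155 and its adjusted p was 0.0907. SMARCA2, the alternative ATPase, ran from 40.8 through 44.8 to 49.6 CPM in 92-1 and from 53.3 through 70.7 to 78.4 in MEL202, and was lower in 92-1 in both comparisons (-0.59 and -0.50). Per kilobase of exon, SMARCA4 stood at 17.8 CPM and SMARCA2 at 2.41 in 92-1, and at 25.6 and 3.62 in MEL202.

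Of 27 subunits of BAF complexes tested, 8 were higher in 92-1 and 9 in MEL202. The counts were 15 and 6 against the second set, and the median went from -0.05 to 0.40. DPF3, a reader of acetylated histones, had 200 reads in 92-1 and 10 in MEL202, at means of 1.82 and 0.0752 CPM. SS18L1, a subunit of the neuronal complex, ran from 181 through 189 to 216 CPM in 92-1 and from 66.8 through 81.2 to 95.7 in MEL202. ARID1B, a DNA-binding subunit, was 2.14-fold higher in 92-1, and SMARCD3 was 2.21-fold higher in MEL202. DPF3 and SS18L1 passed the 2-fold test, and the log2 difference of SS18L1 fell from 1.26 to 0.71 against the second set.

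Of 24 integrins and laminins tested, 16 were higher in MEL202 and 6 in 92-1, and 9 and 3 passed the 2-fold test. ITGA1, which pairs with ITGB1 to bind collagen, ran from 24.5 through 62.3 to 112 CPM in MEL202 and from 2.08 through 3.29 to 5.18 in 92-1 (log2 fold change -4.25, and -3.13 against the second set). ITGB8 and ITGB5, partners of the alpha V integrin, were 19.5-fold and 4.11-fold higher in MEL202, and ITGB8 was -3.28 in place of -4.29 on the log2 scale against the second set. ITGA9 was 6.48-fold, the laminin chain LAMA3 4.28-fold and LAMC3 2.98-fold higher in 92-1. The median log2 fold change of the list was -0.79, and against the second 92-1 set it was 0.08, with 6 higher in 92-1 and 8 in MEL202.

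Collagens split, with 9 of 22 higher in 92-1 and 11 in MEL202, and 5 and 8 past the 2-fold test. The median turned from -0.59 to 0.23 against the second set. Besides COL11A1, COL5A1 and COL3A1, chains of fibrillar collagens, had means of 6.17 and 4.37 CPM in MEL202 and 0.166 and 0.0599 in 92-1. COL3A1 stood at 1.87 CPM in the second 92-1 set, where its log2 fold change was -1.56 in place of -6.15. COL18A1, the precursor of endostatin, was higher in MEL202, with a log2 fold change of -2.14. COL15A1, its relative in basement membranes, was 4.99-fold higher in 92-1 (log2 fold change 2.32, and 3.27 against the second set), and COL2A1, the cartilage collagen, had means of 1.00 and 0.175 CPM.

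Of 14 genes of the mesenchymal and neural crest state tested, 7 were higher in MEL202 and 3 in 92-1, and 5 in each against the second set. CDH2, neural cadherin, ran from 15.2 through 19.6 to 24.9 CPM in MEL202 and did not exceed 0.843 in 92-1 (log2 fold change -5.29, and -4.03 against the second set). NGFR, the low-affinity neurotrophin receptor, had means of 0.832 CPM in MEL202 and 0.0395 in 92-1. ZEB1, a repressor of epithelial genes, and the ligand WNT5A went the other way, at 5.58 and 4.86 CPM in 92-1 against 0.497 and 0.417.

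Receptor tyrosine kinases differed in which members were read in which line. MERTK, a TAM-family receptor, ran from 20.3 through 27.9 to 34.0 CPM in MEL202 and from 0.164 through 0.297 to 0.428 in 92-1, with a mean of 0.112 in the second 92-1 set. MET, the hepatocyte growth factor receptor, and FGFR3 were 4.80-fold and 5.37-fold higher in MEL202. The receptor gene ALK ran from 14.5 through 16.5 to 23.9 CPM in 92-1 and from 0.174 through 0.503 to 0.786 in MEL202, with 27.0 CPM in the second 92-1 set, and NTRK2, the BDNF receptor, was 10.6-fold higher in 92-1. KDR, the VEGF receptor, had 135 reads in MEL202 and 2 in 92-1 (ratio 50.8, counting interval 14.1 to 419). Both reads of KDR in 92-1 came from replicate 3 at 24 h, without which the line had 0 reads and the fitted log2 value of -5.39 was -7.39. In all, 4 of 21 were higher in 92-1 and 11 in MEL202. The excess in MEL202 was lost against the second set, with 8 in each line.

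Among Eph receptors and ephrins, 5 of 15 were higher in 92-1 and 7 in MEL202. The balance reversed against the second set, to 9 and 3, with a median of 0.46 in place of -0.23. EPHA7 and EPHA5, receptors of A-type ephrins, were 12.7-fold and 4.12-fold higher in 92-1, at 2.06 and 9.09 CPM. The ligand EFNA1 was 3.10-fold higher in MEL202. EPHB3 was 3.43-fold higher in MEL202, and its call was lost against the second set (log2 -0.02, adjusted p = 0.942).

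Regulators of G protein signalling, which speed the GTP hydrolysis of G alpha subunits, were largely higher in MEL202. RGS2, selective for Gq, ran from 252 through 456 to 689 CPM in MEL202 and from 17.8 through 27.1 to 30.7 in 92-1, 17.9-fold lower. RGS4 ran from 20.8 through 46.2 to 59.6 CPM and did not exceed 0.426 in 92-1. RGS1 had 2 reads in 92-1 and a mean of 7.09 CPM in MEL202 (ratio 370, counting interval 102 to 3056). Against the second 92-1 set the log2 fold change of RGS1 was -6.54 in place of -8.17, and that of RGS4 -9.93 in place of -8.16. RGS1 stood at -7.23 at 4 h alone and -10.37 at 24 h alone. RGS5 had a mean of 26.9 CPM against 0.795. Of 13 tested, 7 were higher in MEL202, 5 of them past the 2-fold test, and 2 were higher in 92-1. These were RGS14, by 0.93 on the log2 scale, and RGS20, by 0.49, whose sign turned to -0.28 against the second set.

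Of 16 genes of HLA class I presentation tested, 6 were higher in 92-1 and 5 in MEL202, or 6 and 3 against the second set. HLA-B ran from 8.31 through 11.4 to 12.7 CPM in 92-1 and from 0.679 through 1.39 to 2.03 in MEL202, 8.16-fold lower, and the second 92-1 set had a mean of 18.9 CPM. HLA-C, another class I heavy chain, was 2.97-fold higher in 92-1, or 2.68 in place of 1.57 on the log2 scale against the second set. PSMB8, an immunoproteasome subunit, had 398 reads in 92-1 and 4 in MEL202. ERAP2, a peptide-trimming aminopeptidase, was 5.77-fold higher in MEL202, or -3.48 in place of -2.53 on the log2 scale against the second set. HLA genes are polymorphic and share sequence, and PSMB8 overlaps PSMB8-AS1 over 25.3% of its exon bases, so these counts are uncertain.

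Of 7 class II genes tested, 4 were higher in 92-1 and 2 in MEL202, or 4 and 1 against the second set and without any of 3 libraries (92-1 replicate 1 at 24 h, MEL202 replicate 3 at 4 h or at 24 h). HLA-DPB1 and HLA-DPA1, the chains of HLA-DP, had means of 5.81 and 3.35 CPM in 92-1 and 0.0307 and 0.0706 in MEL202, and the groups did not overlap for either. Of the 4 and 9 MEL202 reads, replicate 1 at 4 h had the highest level of each gene, and without it the log2 fold changes went from 7.32 to 7.91 and from 5.50 to 6.29. HLA-DPA1 stood at 4.76 at 4 h alone and 6.67 at 24 h alone. HLA-DMA, a peptide exchange factor, was 2.73 CPM in MEL202 and 1.40 in 92-1, and its log2 difference of -0.97 was 0.01 when the stranded columns were summed. Of 17 interferon-stimulated genes tested, 7 were higher in MEL202 and 2 in 92-1, or 7 and 4 against the second set, with a median of -0.08 in place of -0.55. MX2, an antiviral GTPase, had 462 reads in MEL202 and 2 in 92-1 (ratio 197, counting interval 54.7 to 1631), and the exonuclease ISG20 was 11.8-fold higher in MEL202. Against the second set MX2 was -5.01 in place of -7.15 on the log2 scale, and ISG20 was -2.83 in place of -3.56. DDX58, which encodes the RNA sensor RIG-I, was higher in 92-1 by 1.06 on the log2 scale. The other gene called higher in 92-1, IFI27, did not exceed 1.04 CPM in any library of either line (log2 fold change 1.37, adjusted p = 0.0418, edgeR), and its call was lost with the replicate block (adjusted p = 0.0544), in the fit of all 24 DMSO libraries (0.0611) and without any of 8 libraries.

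Of 16 D and E cyclins, cyclin-dependent kinases and their inhibitors tested, 4 were higher in 92-1 and 7 in MEL202, or 2 and 5 against the second set. CDKN1A, which encodes p21, ran from 269 through 320 to 393 CPM in MEL202 and from 54.6 through 64.7 to 73.4 in 92-1, a 5.17-fold difference, or -1.15 on the log2 scale against the second set in place of -2.37. CDKN2B, CDKN2A and CDKN2C were 4.66-fold, 3.55-fold and 3.45-fold higher in MEL202, and CDKN2B was -1.40 in place of -2.22 against the second set, while the inhibitor gene CDKN1B was higher in 92-1 by 0.34 on the log2 scale. CDK2, which shares 16.8% of its exon bases with AC025162.1, was 2.20-fold higher in 92-1, and its call was lost against the second set (log2 0.33, adjusted p = 0.0589). CCNE1, cyclin E1, likewise went from 0.58 to 0.25 (adjusted p = 0.189).

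Of 24 genes of mitosis and replication tested, 6 were higher in 92-1, 2 in MEL202 and 0 passed the 2-fold test. This balance was not stable: the counts were 3 and 5 against the second set, 7 and 8 with GC and length offsets, 5 and 7 at 24 h alone, 7 and 6 without MEL202 replicate 1 at 4 h and 7 and 4 without its replicate 3. MCM2, a subunit of the replicative helicase, was 87.0 CPM ± 8.60 against 43.8 ± 12.3, with a mean of 131 CPM in the second 92-1 set. PCNA, the polymerase clamp, had a log2 fold change of 0.82 that fell to 0.07 against the second set, where its call was lost (adjusted p = 0.776). PLK1, a mitotic kinase, went from -0.44 to -0.03 (adjusted p = 0.855).

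Of 19 targets of p53, 14 were higher in MEL202 and 1 in 92-1, with a median log2 fold change of -0.53. GDF15, a stress-induced secreted factor, ran from 209 through 401 to 491 CPM in MEL202 and from 2.68 through 4.67 to 7.07 in 92-1, 77.5-fold lower. TP53INP1 was 2.81-fold higher in MEL202, and 3 of the 14 passed the 2-fold test. TP53I3 was higher in 92-1 by 0.53. Against the second 92-1 set 10 were higher in MEL202 and 3 in 92-1. In the BCL2 family, PMAIP1 (NOXA) was 3.08-fold higher in 92-1, while BBC3 (PUMA) and BCL2L1 (BCL-XL) were higher in MEL202, with log2 fold changes of -1.31 and -0.76. Of the 15 tested, 4 were higher in 92-1 and 6 in MEL202, or 3 and 2 against the second set, where PMAIP1 stood at 0.96 in place of 1.62 and BBC3 at -0.64 on the log2 scale.

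HOX genes, homeobox genes in 4 clusters that mark body position, were split between the lines. Of 29 tested, 16 were higher in 92-1 and 9 in MEL202, and 10 and 3 passed the 2-fold test. HOXB7 ran from 37.0 through 40.4 to 41.5 CPM in 92-1 and did not exceed 0.153 in MEL202, and its log2 fold change of 9.84 was 11.31 without MEL202 replicate 1 at 24 h. HOXB4 and HOXD4 had no read in MEL202 and means of 5.08 and 4.31 CPM in 92-1, at least 35.4-fold and 30.0-fold higher. HOXB13, at the far end of its cluster, had a mean of 18.3 CPM against 0.151. In the HOXB cluster, all 8 genes tested, from HOXB3 to HOXB13, passed the 2-fold test with higher levels in 92-1.

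The HOX genes higher in MEL202 lay in other clusters. HOXC4 was 11.8-fold higher in MEL202, at 14.4 CPM ± 2.90 against 1.24 ± 0.370 (SD, n = 6 each). HOXA10 had 368 reads in MEL202 and 1 in 92-1 (ratio 353, counting interval 63.3 to 13923), and HOXC10 had means of 1.72 and 0.0544 CPM. The log2 fold change of HOXA10, -7.458, was -5.928 against the second 92-1 set and -8.755 without 92-1 replicate 1 at 24 h. Several members overlap other annotated genes, among them HOXA10 with HOXA10-AS over 26.3% of its exon bases, and HOXC4 with HOXC6. The list counts against the second 92-1 set were also 16 and 9.

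**Figure D3:**
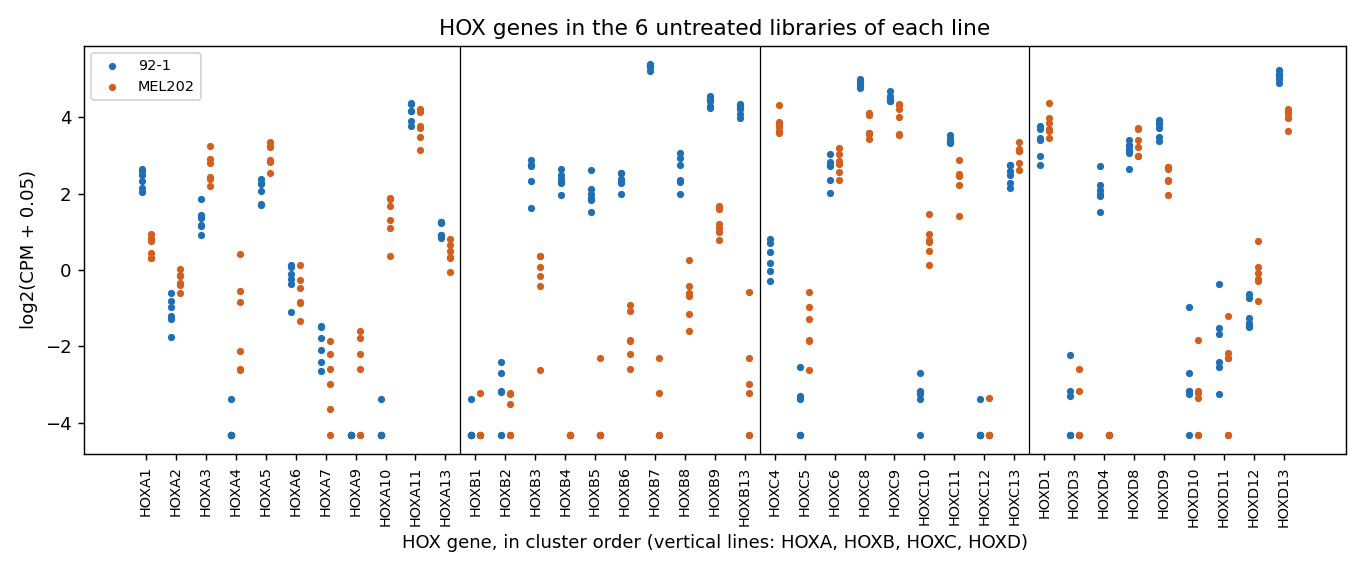
Level of 39 HOX genes as log2(CPM + 0.05) in the 6 libraries of 92-1 and the 6 of MEL202, in cluster order. In the HOXB panel the 92-1 points from HOXB3 to HOXB13 lie above the MEL202 points, and HOXC4, HOXA10 and HOXC10 show the reverse.

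Imprinted genes, which are expressed from 1 parental copy, included large single differences. MEST ran from 24.1 through 43.0 to 50.5 CPM in MEL202 and did not exceed 0.361 in 92-1. Its log2 fold change of -8.16 was -3.50 when the stranded columns were summed, and it shares 27.4% of its exon bases with AC007938.2. NDN and MKRN3, paternally expressed neighbours on chromosome 15, had means of 12.2 and 3.04 CPM in MEL202 and 0.570 and 0.0102 in 92-1. PEG3, a zinc finger gene, was higher in 92-1 by 1.35 on the log2 scale, and by 3.14 against the second set. MEG3, a maternally expressed RNA, had 44 reads in 92-1 and 1 in MEL202, the latter in replicate 1 at 24 h, with groups that overlapped. Of 20 tested, 5 were higher in each line, and 8 in each against the second set.

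The BMP and TGF-beta pathway had more genes higher in MEL202, 17 of 30 genes higher there and 5 in 92-1, or 16 and 10 against the second set. All 11 genes past the 2-fold test were higher in MEL202. The ligand TGFB1 ran from 78.4 through 84.1 to 120 CPM in MEL202 and from 5.26 through 6.75 to 7.46 in 92-1, 13.6-fold lower, and was -1.96 in place of -3.76 on the log2 scale against the second set and -1.26 when the stranded columns were summed. The type II receptor BMPR2 was 3.12-fold higher in MEL202. SMAD6, an inhibitory SMAD, ran from 132 through 156 to 184 CPM in MEL202 and from 15.1 through 17.0 to 23.7 in 92-1, 8.67-fold lower. Of the transcriptional targets, ID1 and ATOH8 were 3.74-fold and 4.60-fold higher in MEL202, and NOG, a secreted BMP antagonist, 8.64-fold. BMP2 and the receptors TGFBR1 and TGFBR3 were higher in 92-1 by 1.22, 1.08 and 1.09 on the log2 scale, and BMP2 by 2.74 against the second set.

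In the WNT pathway, 9 of 28 genes were higher in each line. The split was uneven against the second set, with 16 higher in 92-1 and 6 in MEL202 and a median of 0.54 in place of -0.04. SFRP1, a secreted WNT inhibitor, ran from 428 through 606 to 685 CPM in MEL202 and from 69.2 through 83.0 to 89.7 in 92-1, 7.27-fold lower, and was -2.06 in place of -2.86 on the log2 scale against the second set. DKK1, another inhibitor, and TCF7L1, a repressor of target genes, were 5.45-fold and 6.11-fold higher in MEL202. TCF7, the T cell factor, ran from 14.3 through 18.4 to 20.6 CPM in 92-1 and from 3.07 through 3.60 to 4.60 in MEL202. The ligand WNT11 and the R-spondin receptor LGR4 were 4.25-fold and 2.76-fold higher in 92-1. AXIN2, a feedback target of the pathway, was at 1.90 CPM in 92-1 and 2.25 in MEL202 and did not pass the test.

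Cholesterol synthesis genes were higher in 92-1 for 8 of 23 and in MEL202 for 3. The counts were 13 and 3 with GC and length offsets and 10 and 5 without MEL202 replicate 1 at 4 h. HMGCS1, which makes HMG-CoA, stood at 605 to 732 CPM after 4 h and 219 to 362 after 24 h in 92-1, and at 153 to 244 and 96.9 to 127 in MEL202. At each time the 92-1 libraries lay above those of MEL202, and the log2 fold change with time as a term was 1.59 ± 0.17, or 0.86 against the second set. FDFT1, squalene synthase, was higher in 92-1 by 0.86 on the log2 scale. TM7SF2, a sterol reductase, was higher in MEL202 with a log2 fold change of -1.31, and its call was lost against the second set (log2 -0.07, adjusted p = 0.739).

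Mitochondrially encoded genes were higher in 92-1 for 10 of 13, 0 of them past the 2-fold test, with a median log2 fold change of 0.77. MT-CO2, a subunit of cytochrome c oxidase, ran from 7250 through 8135 to 8628 CPM in 92-1 and from 2183 through 3963 to 4378 in MEL202. Against the second 92-1 set, with a mean of 4228 CPM, its log2 fold change was 0.21 (adjusted p = 0.392) and 3 of the 13 genes were called. MT-ND2, a subunit of complex I, went from 1.06 to 0.36 (adjusted p = 0.147). With GC and length offsets the median of the 13 was 0.29, with 4 higher in 92-1 and 1 in MEL202.

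Of 22 cancer-testis antigens, which are silent in most adult tissues outside the germ line, 17 had no library above 3 reads in either line. MAGEB2, MAGEC2 and SSX2 had no read in any of the 12. Of the 3 tested, PRAME and SSX1, a transcriptional repressor, were higher in MEL202, the latter at 10.8 against 5.78 CPM.

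By chromosome, the fold changes of neighbouring genes moved together in several places. Among the autosomes and X, whole-chromosome medians of the log2 fold change were 0.38 for chromosome 18 (241 genes), 0.36 for chromosome 6 (818 genes) and 0.34 for chromosome 13 (285 genes), and -0.44 for chromosome 8 (629 genes) and -0.27 for chromosome 7 (808 genes). Chromosome 3, of which 1 copy is lost in many high-risk tumours, had a median of -0.235. On chromosome 13 the median fell to 0.10 against the second 92-1 set. The other 4 kept their sign there, at 0.31, 0.25, -0.58 and -0.27.

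**Figure D4:**
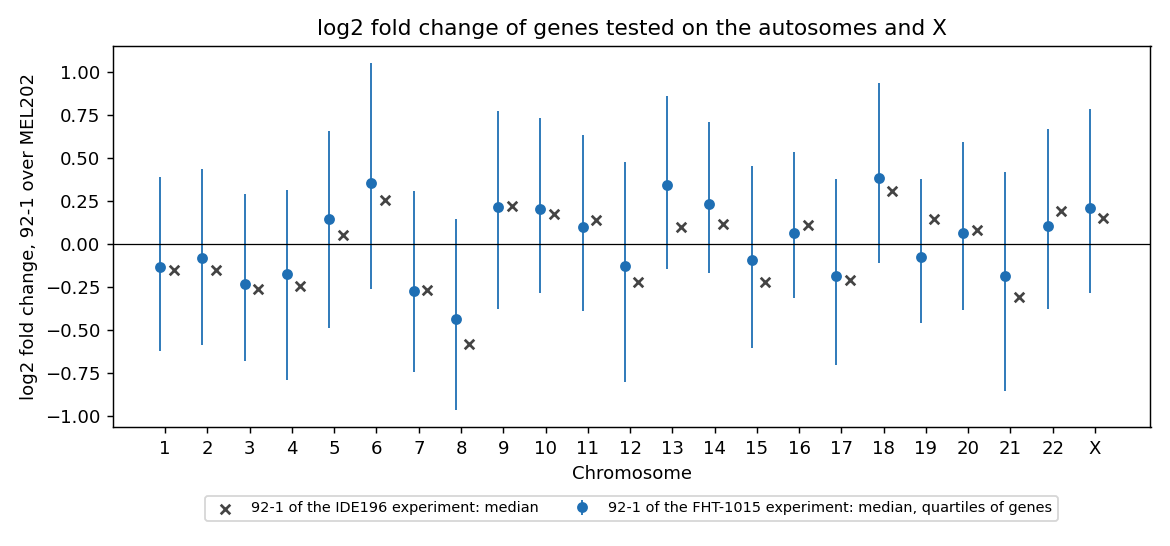
Median and quartiles of the log2 fold change of 92-1 over MEL202 for the genes tested on each autosome and X, with crosses for the second 92-1 set against the same MEL202 libraries. Of the chromosomes drawn, 18, 6 and 13 lie highest and 8 and 7 lowest.

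In bins of 20 Mb with at least 20 genes tested, 13 of 155 had a median beyond 0.5 in either direction. Joining adjacent bins of that kind gave 8 regions that were chosen by their values and have no test. The widest lay from 100 Mb to the end of chromosome 6, where 258 genes had a median of 0.92, or 1.89-fold higher in 92-1. Of these, 178 were higher in 92-1 and 22 in MEL202, and against the second set the median was 0.74. It holds ARID1B, LIN28B, a let-7 inhibitor detected in 92-1 alone, the melanosome GTPase gene RAB32 and PHF10, a BAF subunit, each of which was higher in 92-1. The bin from 60 to 80 Mb of the same chromosome had a median of -0.61 over 42 genes. Further regions were less steady under other settings. Chromosome 11 from 80 to 100 Mb went from 0.504 to -0.043 against the second set, chromosome 21 up to 20 Mb from 0.549 to 0.017 over genes of at least 5 CPM, and X from 100 to 120 Mb from 0.530 to 0.307 against the second set.

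Lower levels in 92-1 were found at the ends of chromosomes 12, 17 and 8. From 100 Mb of chromosome 12, 255 genes had a median of -0.72, with 171 higher in MEL202 and 23 in 92-1. From 60 Mb of chromosome 17, 287 genes had a median of -0.57, with 161 and 17, and this stretch holds ACTG1, TIMP2, SOX9 and PRKCA, each higher in MEL202. The transporter gene SLC16A5 and the tetraspanin gene TSPAN10, in the same stretch, were higher in 92-1, at means of 10.6 against 0.0187 CPM and 225 against 105 CPM. From 140 Mb of chromosome 8, 96 genes had a median of -0.88, with 72 and 6, among them PTK2, which encodes focal adhesion kinase (-0.83). The medians against the second set were -0.80, -0.56 and -0.67.

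**Figure D5:**
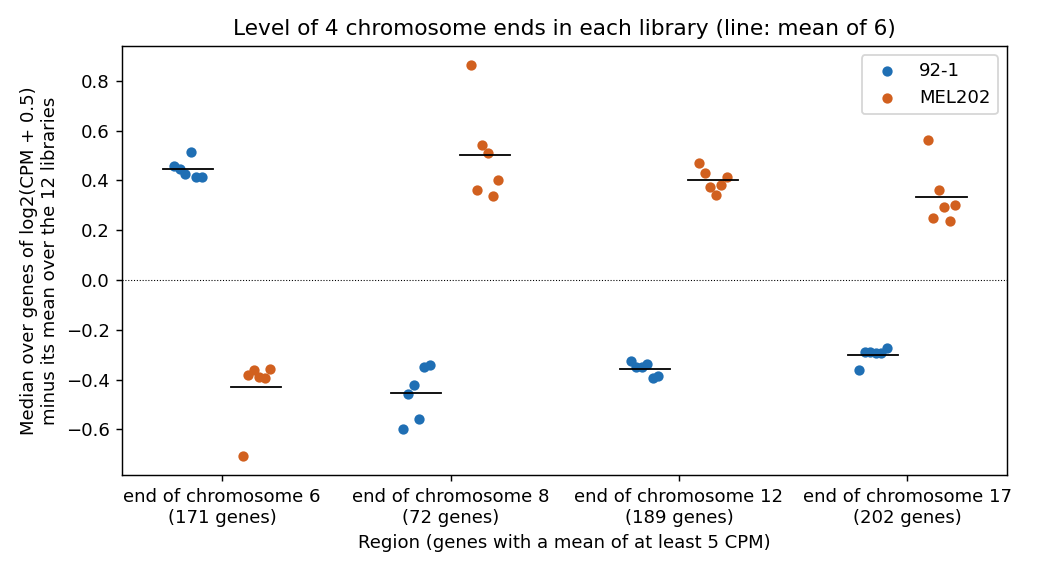
Median over genes of log2(CPM + 0.5), minus each gene's mean over the 12 libraries, for genes of at least 5 CPM at the ends of 4 chromosomes, with 1 point per library and a line at the mean of 6. The 92-1 and MEL202 libraries do not overlap in any of the 4 regions, which were chosen by their line difference in these libraries. MEL202 replicate 1 at 4 h lies farthest from the others on chromosomes 6, 8 and 17.

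Over the 171 genes of at least 5 CPM at the end of chromosome 6, the library values ran from 0.415 to 0.516 in 92-1 and from -0.706 to -0.358 in MEL202. Over the 189 such genes of chromosome 12 they ran from -0.395 to -0.326 and from 0.343 to 0.472. DNA copy number was not measured in these samples.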

How the data were processed

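The authors deposited unstranded and stranded read counts per gene for poly(A)-selected RNA, with hg38 named in the submitters' processing notes; the counter and aligner are not given in the sources used here. The unstranded counts were used as deposited, without the rows for reads in no gene (2.47% to 6.89% of uniquely mapped reads) and ambiguous reads (9.83% to 11.9%). Symbols and coordinates came from GENCODE 29 (GRCh38), which matched 58552 of 58870 gene IDs. Genes were filtered with filterByExpr over the 4 groups, scaled by TMM and tested with edgeR 4.0.16 (R 4.3.3) with line and time as terms, and Benjamini-Hochberg adjustment over all genes tested. glmTreat tested for a fold change above 2. Each SE was back-calculated, as the absolute log2 fold change over the square root of the F statistic. The test was also run on simulated counts, which lacked the GC and length trends of these libraries. That run is not used as support here. Alternatives used limma 3.58.1, DESeq2 1.42.0 and other settings. Named genes were the 8 protein-coding genes per direction with the largest fold changes (mean of at least 20 CPM, groups not overlapping), the 5 with the largest CPM difference, the 2 per list and direction with the largest fold changes among called members, MITF, SOX10, SMARCA4, SMARCA2 and the 5 most abundant genes detected in each line alone. Other list members were named with their values, chosen after those values were seen. The members and lists were chosen with earlier results of these data known. Counting intervals are at 95% and cover counting error only. Some list members are not reported here.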

Additional observations from a re-analysis of the deposited data

Results flagged for a closer look

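Among the 115 genes chosen by the naming rule, those with a mean of at least 5 CPM in a line gave 134 groups of 6 libraries. A library far from the others was found in 6 of the groups, where chance gives about 1 in 20. OCA2 was flagged in both lines, at 37.5 CPM in 92-1 replicate 1 at 4 h (others 45.8 to 50.6) and at 18.9 CPM in MEL202 replicate 1 at 4 h (others 8.05 to 11.2). The same MEL202 library stood apart for TGFB1, at 120.3 CPM (others 78.4 to 88.9), and for CAPN3, a calpain protease, at 17.7 CPM (others 3.53 to 6.75). MT-CO2 was at 2183 CPM in MEL202 replicate 3 at 24 h (others 3588 to 4377). MITF was at 455.9 CPM in 92-1 replicate 1 at 24 h (others 342.7 to 379.4).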

How the results depend on the processing

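Leaving out each library in turn gave 3929 to 4674 genes higher in 92-1 and 4226 to 4938 in MEL202, 1096 to 1275 and 1312 to 1432 past the 2-fold test, and 0 in the interaction. With 4 h libraries alone the counts were 1901, 2376, 621 and 855, with fewer samples. With 24 h libraries alone, as few in number, they were 3694, 3869, 1033 and 1119. The interaction gave 1 gene with DESeq2 and 12 with no filter on low counts, which moved the median of all genes from -0.01 to 0.21. Same-numbered replicates of the lines did not pair within a time (correlations of deviations -0.154 to 0.0313), and the replicate block gave 4094 and 4056 genes, 1131 and 1254 past the 2-fold test and 0 in the interaction. The block ended the calls of IFI27 (adjusted p = 0.0544, edgeR), BUB1 (0.0666) and MVK (0.0579). Within a line, same-numbered 4 h and 24 h libraries correlated at -0.122 to 0.324 in 92-1 and -0.016 to 0.52 in MEL202. With their counts summed, an alternative chosen after seeing the data, the counts were 3998, 4475, 1162 and 1371, and BUB1 (adjusted p = 0.0536, edgeR) and MVK (0.0611) lost their calls. Genes detected in 1 line alone numbered 12 and 7 at 0 reads and 57 and 107 at up to 10 reads. Against the second 92-1 set the medians of chromosomes 13, 6 and 8 were 0.100, 0.254 and -0.581, and chromosome 6 was 0.311 over genes of at least 5 CPM. RGS20 reversed to -0.283, SOX10 to 0.355 and SMARCA4 to 0.564 against that set, SOX10 to 0.079 with GC and length offsets, and HLA-DMA to 0.014 with the stranded columns summed; the cause was not tested. Of 3095 values for 115 genes under alternatives, 3025 kept direction and side of the threshold and 64 lost the call. The unlogged fold change moved by more than 1.5 times for 54 of these genes against the second set and 19 with limma-voom. It did so for 17 at 4 h alone, 14 at 24 h alone and 9 with the stranded columns summed. The unlogged fold change moved as far without a single library for 14 genes, each with at most 9 reads in the lower line. Leaving out single libraries ended the calls of IFI27 (log2 fold change 1.37, adjusted p = 0.0418, edgeR; lost without any of 8 libraries), CAPN3 (-0.87, 6 libraries), BUB1 (-0.45, 5), HLA-DRB1 (-1.53, 3) and MVK (-0.45, 1). Of 1836 list counts, 1676 stayed within 1.5 times.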

Other observations

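GFAP, an intermediate filament of glia and Schwann cells, was split within 92-1. It stood at 9.99, 10.3 and 11.2 CPM in 3 libraries, replicates 2 and 3 at 24 h and replicate 3 at 4 h, and at 0 to 0.274 CPM in the other 3. The second 92-1 set did not exceed 0.710 CPM, and MEL202 held 4 reads in all.

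Other genes of sterol supply were also read at both times. SQLE, squalene epoxidase, ran from 725.4 to 796.5 CPM at 4 h and from 434.6 to 452.9 at 24 h in 92-1, and from 651.6 to 862.2 and 548.3 to 608.9 in MEL202. INSIG1, a sterol sensor of the endoplasmic reticulum, ran from 157.2 to 212.3 and 74.1 to 89.5 CPM in 92-1, and from 196.9 to 251.9 and 116.1 to 128.9 in MEL202. In each line the 4 h libraries lay above the 24 h libraries for both genes. The difference between times was not tested here.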
